A study of Mus musculus with 11 samples.

Results

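Voltage-gated sodium and calcium channel genes were described in NSC34 cells that carried a hairpin against Tardbp. A gene belonged to the set when the platform annotation gave its probe sets a single symbol that began with Scn and a digit, or with Cacna, Cacnb or Cacng. The rule found 31 genes among 15803 genes with a single symbol, measured by 808 probe sets of 179496. They comprised 17 pore-forming subunits and 14 auxiliary subunits, or 11 sodium channel and 20 calcium channel genes. A gene's level was the mean log2 value of its probe sets.

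NSC34 is an immortalised mouse line made by fusing neuroblastoma cells with embryonic spinal cord cells, and it keeps some properties of motor neurons. All groups carried the pSUPERIOR hairpin vector, introduced with lipofectamine, and were kept as stable clones after puromycin selection. The shTardbp group (4 arrays, numbered 1 to 4) expressed a hairpin directed at Tardbp, which encodes the RNA-binding protein TDP-43. The shGFP group (4 arrays, numbered 1, 2, 3 and 5) carried a hairpin against green fluorescent protein, and the shLuciferase group (3 arrays, numbered 1, 2 and 4) one that the protocol describes as Renilla-shRNA. Tardbp lies on mouse chromosome 4. For its hairpin, shown because all contrasts rest on it, the protocol gives the following 25 bases, which were not aligned here.
Tardbp hairpin target: tctaagcaaagccccagacgagcct
The labels do not tell apart clones, cultures and technical repeats within a group. The p-values therefore describe the scatter of these samples alone, and that scatter may be technical. Total RNA was amplified, labelled with biotin and hybridised to Affymetrix whole-transcript arrays.

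The median log2 value of an array lay between 6.82 and 6.92. Tardbp stood at 8.88 in shTardbp, against 9.28 in shGFP and 9.29 in shLuciferase, a log2 change of -0.40 (SE 0.0722, limma adjusted p = 0.000713). The sample descriptions carry a code that opens with P for the 4 shTardbp arrays and shLuciferase 4 and with C for the other 6 control arrays, and its meaning is not given. When the letter was added as a block, Tardbp changed by -0.29 and no longer passed (adjusted p = 0.173). Of 12 motor neuron markers, 9 stood above the 25th percentile of probe set values (4.51) in the controls. Chat and Slc5a7, which define cholinergic neurons, and the motor neuron factor Mnx1 stood below it. Slc18a3, the vesicular acetylcholine transporter, was 0.63 higher in shTardbp (adjusted p = 0.000129, on 1 probe set), and Isl2 was 0.26 higher (adjusted p = 0.0135). The 10 other motor neuron markers did not pass against both controls. Among these 10, Isl1 changed by -0.51 against shGFP (adjusted p = 0.00429) and by 0.60 against shLuciferase (adjusted p = 0.00282). All 8 pan-neuronal and neuroblastoma markers measured stood above the 25th percentile. Among them the catecholamine synthesis genes Th and Dbh passed, Th 0.26 higher (adjusted p = 0.00589) and Dbh 0.46 lower (adjusted p = 0.000835), although Dbh changed by -1.11 against shGFP and by 0.19 against shLuciferase. In the skeletal muscle, cardiac, glial and fibroblast marker lists, 7 of 9, 2 of 5, 5 of 7 and 6 of 8 genes stood above the same percentile in the controls. The mean level of the fibroblast list was 5.06 to 5.18 in shTardbp, 5.42 to 5.51 in shGFP and 5.30 to 5.38 in shLuciferase. Its Dcn fell by 1.61 and Pdgfra by 0.92 on the log2 scale (adjusted p = 2.77e-08 and 1.31e-06), Pdgfrb was 0.41 higher (adjusted p = 0.000753), and its 5 other genes did not pass. The Pdgfrb change was 0.039 against shGFP and 0.79 against shLuciferase. Of the muscle markers, the cardiac troponin gene Tnnt2 was 0.63 higher (adjusted p = 3.82e-06) and the skeletal troponin gene Tnnt3 0.37 higher (adjusted p = 0.000604), both with all shTardbp values above all control values. Of the glial markers, Mbp, a myelin protein gene, was 0.24 higher (adjusted p = 0.0124). No other muscle or glial marker passed. The part of these marker changes in the channel results was not tested. In RNA from a whole culture fewer cells with a transcript and less transcript per cell cannot be told apart.

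Voltage-gated sodium and calcium channels open when the membrane depolarises. Their large pore-forming subunits hold the voltage sensors and the ion path. Sodium channels start and carry action potentials, and small beta subunits with a single membrane pass adjust their gating and their place on the cell surface. Calcium channels turn depolarisation into calcium entry that drives transmitter release, gene expression and contraction. High-voltage-activated calcium channel pores assemble with an intracellular beta subunit and an extracellular alpha2delta subunit, which promote surface expression. Several gamma proteins, among them those encoded by Cacng2, Cacng4 and Cacng5, serve AMPA-type glutamate receptors as auxiliary subunits. Motor neurons rely on these channels for firing and for transmitter release at the neuromuscular junction.

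Promoter sequences are shown for the member that rose most and for the 2 members that fell most against both controls among those with a RefSeq promoter, so that the 5' ends of these genes can be compared. Each stretch runs from 250 bases before to 50 bases after an annotated start (GRCm38.p6, 300 bases, 5' to 3' on the gene's strand), and CG dinucleotides are in capitals. Where several starts are listed, the one with the most CG dinucleotides is given. The stretches lie at chr9:107399630-107399929 on the plus strand (Cacna2d2), chr11:107915006-107915305 on the minus strand (Cacng5) and chr2:52676094-52676393 on the minus strand (Cacnb4).
Cacna2d2 promoter: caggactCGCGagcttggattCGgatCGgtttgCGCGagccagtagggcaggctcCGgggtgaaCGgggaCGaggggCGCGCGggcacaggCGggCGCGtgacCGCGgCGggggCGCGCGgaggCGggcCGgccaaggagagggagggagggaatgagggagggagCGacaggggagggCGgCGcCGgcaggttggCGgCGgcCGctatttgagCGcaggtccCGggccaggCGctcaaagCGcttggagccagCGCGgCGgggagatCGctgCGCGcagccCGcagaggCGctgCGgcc
Cacng5 promoter: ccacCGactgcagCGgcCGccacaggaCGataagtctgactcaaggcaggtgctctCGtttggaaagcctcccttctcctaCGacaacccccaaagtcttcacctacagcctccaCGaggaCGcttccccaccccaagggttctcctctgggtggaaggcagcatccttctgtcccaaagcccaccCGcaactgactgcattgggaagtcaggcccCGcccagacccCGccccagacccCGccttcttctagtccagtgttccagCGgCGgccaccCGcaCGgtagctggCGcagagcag
Cacnb4 promoter: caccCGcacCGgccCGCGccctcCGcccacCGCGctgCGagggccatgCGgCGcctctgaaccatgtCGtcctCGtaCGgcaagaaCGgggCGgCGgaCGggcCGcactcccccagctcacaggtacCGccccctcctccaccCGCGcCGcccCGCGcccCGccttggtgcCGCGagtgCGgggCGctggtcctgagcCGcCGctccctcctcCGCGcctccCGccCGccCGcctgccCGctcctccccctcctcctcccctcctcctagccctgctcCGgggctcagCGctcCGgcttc
The Cacna2d2 stretch holds 43 CG dinucleotides, the Cacng5 stretch 17 and the Cacnb4 stretch 40, whereas the median over all 32851 RefSeq promoters in the table was 7. That median covers every start, while each stretch is the gene's start with the most CG dinucleotides, so the values are not alike. The other Cacng5 start holds 5, and the other Cacnb4 starts hold 5 and 27. All 3 stretches hold the letters GGGCGG on at least 1 strand, as do 35.7% of all promoters of that length. Cacng5 alone of them holds CCAAT, found on either strand in 37.4% of all promoters, and none holds TATAAA, found in 13.6%. Promoters were found for 24 of the 31 genes. For each gene the start with the most CG dinucleotides was taken. The 7 members above the median gene level had 29 to 57 CG dinucleotides (median 38), and the 17 others had 2 to 63 (median 11). Gene level here is the mean over all arrays, shTardbp included, which places Cacna2d2 above and Cacng5 below. High counts occurred in both classes: Cacna1d, an L-type calcium channel pore gene whose level was low in all arrays, had the highest count of 63.

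The array signal of channel genes ranged from high to low in these cells, and no detection call was made. The levels of 10 members exceeded the median gene level of 6.41, taking the mean over all arrays. In the 7 control arrays the 6 highest were Cacnb3, Scn3b, Cacna2d1, Cacng4, Cacna1b and Cacna1h, so 4 of the top 6 were auxiliary subunits. Probe sets differ in affinity, so this order is one of array signal and not of transcript amount. Another 13 members had no group mean above the 25th percentile of all probe set values. Among them were Scn1a, a sodium channel pore of central neurons, and Scn9a, Scn10a and Scn11a, sodium channel pores of sensory neurons. The salt-sensing channel gene Scn7a, the R-type pore gene Cacna1e and the L-type pore genes Cacna1d, Cacna1f (retina) and Cacna1s (skeletal muscle) belonged to the same class, as did the auxiliary genes Cacnb2, Cacng2, Scn4b and Cacna2d3. Scn9a rested on a single probe set and Scn3a on 4, while Cacna1c had 59.

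**Figure D1:**
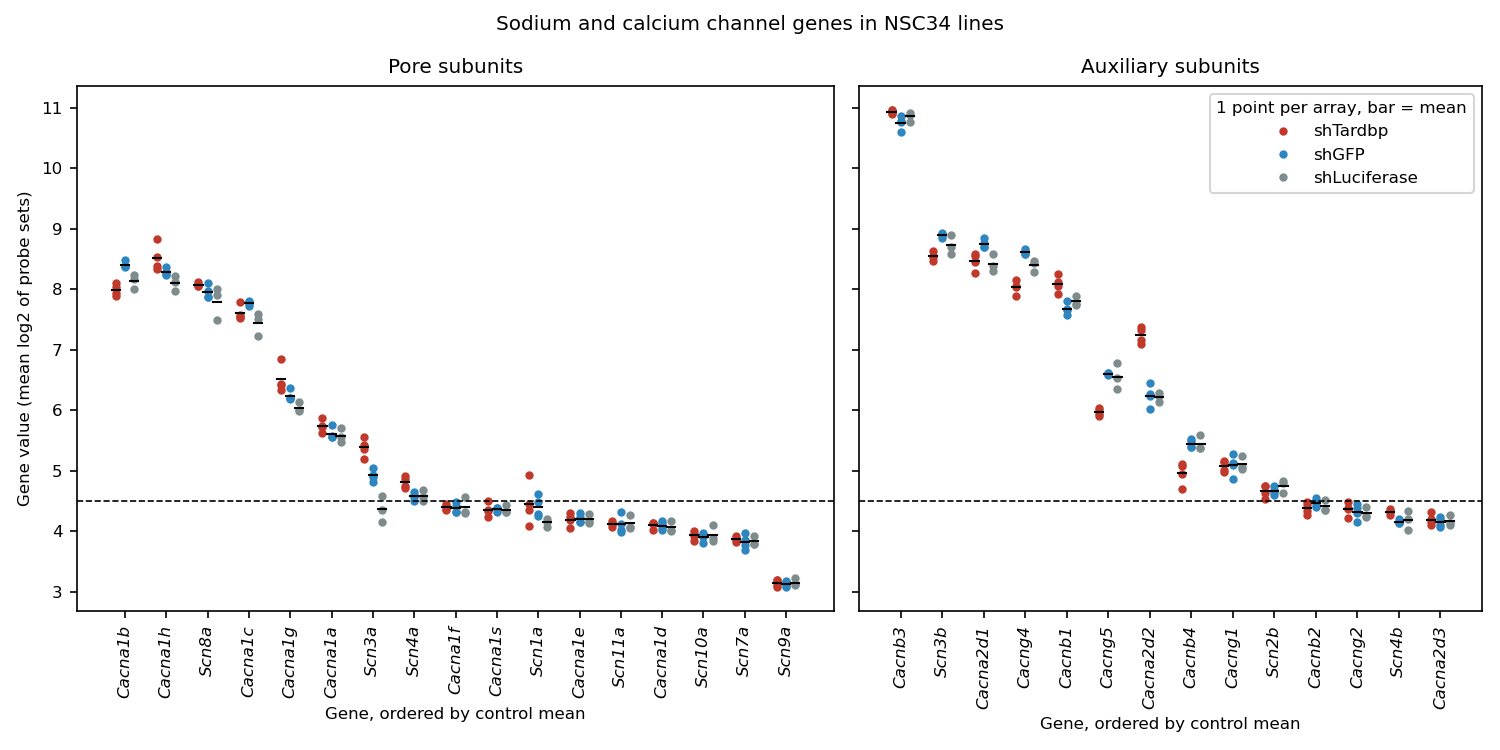
Gene level (mean log2 of probe sets) of the 17 pore and 14 auxiliary subunit genes in each array, with shTardbp in red, shGFP in blue and shLuciferase in grey; short bars are group means and the dashed line is the 25th percentile of all probe set values (4.51). Cacna2d2, Scn3a, Cacnb1 and Scn4a had all 4 shTardbp points above all 7 control points, and Cacng5, Cacnb4 and Cacng4 had them below.

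The main comparison set the channel genes of shTardbp cells against both control lines (shTardbp minus the average of the shGFP and shLuciferase means, limma, adjusted p under 0.05 over all genes). Of the 31 members 11 passed, 6 higher and 5 lower. Over all 15803 genes 30.5% passed (13.5% higher and 17.0% lower), so the members' share of 35.5% was near the background. The median log2 change was 0.011 over the members and 0.00717 over all genes, and the median size of change was 0.132 and 0.113. By class, 4 pore genes rose and 1 fell among 17 (29.4% called), and 2 auxiliary genes rose and 4 fell among 14 (42.9% called). The pore counts shifted with the control, at 2 higher and 1 lower against shGFP and 4 higher and 0 lower against shLuciferase. The auxiliary counts were 2 higher and 5 lower against shGFP, and 2 higher and 3 lower against shLuciferase. Whether these 2 classes differ was not tested. Higher signal went with more calls across the array: 46.8% of genes above the median level passed, against 14.2% of the genes at or below it. Among the members, 6 of 10 above that level passed and 5 of 21 at or below it. The split used the mean over all arrays, so a change can move a gene between these classes. Cacna2d2 (6.24 in the controls, 7.24 in shTardbp) counted as above the median of 6.41 through its rise. Cacng5 (6.59 in the controls, 5.97 in shTardbp) counted as below it through its fall. None of the 13 members under the 25th percentile passed, and 1 of them (Scn4b) had an unadjusted limma p under 0.05.

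**Figure D2:**
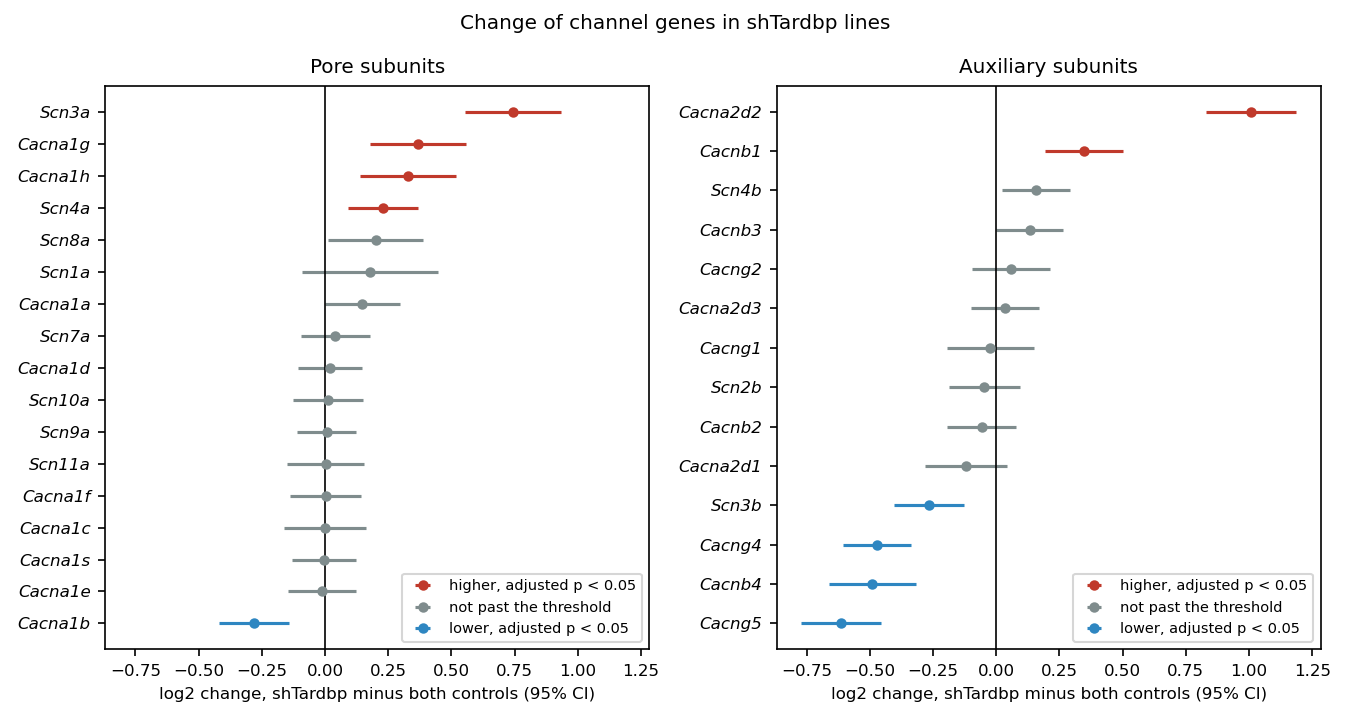
Log2 change of each channel gene, shTardbp minus the average of the shGFP and shLuciferase means, with 95% confidence intervals from the limma fit; red genes passed the threshold upward, blue ones downward and grey ones did not pass. Cacna2d2 (1.01) and Scn3a (0.74) lie farthest to the right, and Cacng5 (-0.61), Cacnb4 (-0.49) and Cacng4 (-0.47) farthest to the left.

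Among sodium channel pores, Scn3a and Scn4a rose in shTardbp cells, and the 6 others did not pass the test. Scn3a encodes a sodium channel that is prominent in embryonic neurons. It had levels of 5.20, 5.56, 5.37 and 5.43 in shTardbp, against 5.06, 4.81, 4.93 and 4.91 in shGFP and 4.36, 4.58 and 4.15 in shLuciferase. All shTardbp values lay above all control values, and the controls themselves separated, with every shGFP value above every shLuciferase value. Scn3a thus rose by 0.74 (SE 0.0878, limma adjusted p = 2.23e-05), made up of 0.46 against shGFP (adjusted p = 0.00266) and 1.02 against shLuciferase (adjusted p = 1.19e-05). Of its 4 probe sets, the 2 above the 25th percentile rose by 1.33 and 1.21. The other 2 changed by 0.39 and 0.038 and did not pass, so the gene value averages strong and weak signal.

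Scn4a, the sodium channel of skeletal muscle, was only just detected. Its levels were 4.87, 4.92, 4.71 and 4.74 in shTardbp, 4.66, 4.57, 4.50 and 4.60 in shGFP, and 4.50, 4.57 and 4.69 in shLuciferase. The shTardbp values all lay above the controls, by as little as 4.71 against 4.69. Its change was 0.23 (SE 0.0636, limma adjusted p = 0.0133), and 3 of its 27 probe sets were called higher. The call ended without shTardbp 2 (0.19, adjusted p = 0.0542), with probe sets summarised by their median (0.23, adjusted p = 0.127) and with the code letter as a block (0.10, adjusted p = 0.595).

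Scn8a, the main sodium channel of mature axon initial segments and nodes of Ranvier, is described because its result depended on the setting; it was chosen after its values were seen. It stood at 8.06, 8.05, 8.08 and 8.12 in shTardbp, at 8.11, 7.98, 7.88 and 7.88 in shGFP, and at 8.0003, 7.91 and 7.49 in shLuciferase. Only shGFP 1 among the controls reached the shTardbp range, and shLuciferase 4 was lowest. The change of 0.20 did not pass (SE 0.0878, adjusted p = 0.108, 95% confidence interval 0.0118 to 0.390). It passed without shLuciferase 1 (0.25, adjusted p = 0.0408) and with the code letter as a block (0.59, adjusted p = 0.00409). Within the P arrays the shTardbp mean was 0.59 above shLuciferase 4. The remaining sodium pores, Scn1a, Scn7a, Scn9a, Scn10a and Scn11a, had changes between 0.0026 and 0.18, and none passed.

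Of 3 sodium channel beta subunits, Scn3b fell and the other two did not pass. Scn3b had the second highest level of all members. Levels were 8.47, 8.64, 8.56 and 8.53 in shTardbp, 8.89, 8.85, 8.91 and 8.93 in shGFP, and 8.70, 8.59 and 8.90 in shLuciferase. The shTardbp values lay below all shGFP values but overlapped shLuciferase through shLuciferase 2. The change was -0.27 (SE 0.0647, limma adjusted p = 0.00600), with -0.35 against shGFP (adjusted p = 0.00238) and -0.18 against shLuciferase (adjusted p = 0.109). All 11 Scn3b probe sets had a negative change, and 2 of them passed on their own. When probe sets were summarised by their median the adjusted p was 0.0550. Scn2b changed by -0.047 (adjusted p = 0.692) and Scn4b by 0.16 (adjusted p = 0.0752).

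Among 9 calcium channel pores, the T-type genes Cacna1g and Cacna1h rose, and Cacna1b fell. T-type channels open near the resting potential and support burst firing. Cacna1g had levels of 6.44, 6.85, 6.34 and 6.42 in shTardbp, 6.37, 6.18, 6.21 and 6.21 in shGFP, and 5.99, 6.003 and 6.13 in shLuciferase. One value, that of shGFP 1, overlapped the shTardbp range, whose highest value was shTardbp 2. The change was 0.37 (SE 0.0879, limma adjusted p = 0.00515). It reached 0.47 against shLuciferase (adjusted p = 0.00464) and 0.27 against shGFP (adjusted p = 0.0585). Of its 46 probe sets 41 had a positive change and 12 were called higher. The call ended with the median of the probe sets (0.31, adjusted p = 0.0863) and with the code letter as a block (0.25, adjusted p = 0.349).

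Cacna1h stood at 8.53, 8.84, 8.34 and 8.39 in shTardbp, at 8.37, 8.24, 8.25 and 8.29 in shGFP, and at 8.22, 8.12 and 7.98 in shLuciferase. As for Cacna1g, shTardbp 2 was highest and only shGFP 1 overlapped. The change was 0.33 (SE 0.0882, limma adjusted p = 0.0107), again past the threshold against shLuciferase (0.42, adjusted p = 0.00957) and not against shGFP (0.24, adjusted p = 0.0952). Nearly all of its probe sets moved one way: 39 of 40 had a positive change. With the code letter as a block the change was larger, 0.49, but did not pass (adjusted p = 0.0648).

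Cacna1b, the N-type channel that triggers transmitter release, was at 8.04, 8.11, 7.93 and 7.89 in shTardbp. It was at 8.49, 8.38, 8.37 and 8.38 in shGFP and at 8.24, 8.17 and 8.01 in shLuciferase. The shTardbp values lay under all shGFP values, while shLuciferase 4 fell inside their range. The change of -0.28 passed (SE 0.0644, limma adjusted p = 0.00405), carried by -0.41 against shGFP (adjusted p = 0.000624). Against shLuciferase it was -0.15 and did not pass (adjusted p = 0.212). The call ended with the code letter as a block (-0.12, adjusted p = 0.517), and within the P arrays the shTardbp mean was only 0.0168 below shLuciferase 4. Of 51 probe sets 47 had a negative change, and 14 passed.

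Cacna1a, the P/Q-type channel of motor nerve terminals, changed by 0.15 and did not pass (adjusted p = 0.132). Cacna1c, the most widely expressed L-type pore, is given because its controls differed, and was chosen after its values were seen. It had 7.79, 7.57, 7.55 and 7.53 in shTardbp, 7.81, 7.78, 7.76 and 7.72 in shGFP, and 7.60, 7.51 and 7.24 in shLuciferase. The shTardbp range lay between and across those of the controls. Its change was 0.00053 (95% confidence interval -0.162 to 0.163). The L-type genes Cacna1d, Cacna1f and Cacna1s and the R-type gene Cacna1e, all under the 25th percentile, had changes from -0.012 to 0.021, and none passed.

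Cacna2d2, an alpha2delta subunit that brings channels to the surface and binds gabapentin-type drugs, had the largest change of all members against the average of both controls. Levels were 7.09, 7.17, 7.38 and 7.32 in shTardbp, against 6.45, 6.27, 6.25 and 6.02 in shGFP and 6.29, 6.24 and 6.14 in shLuciferase. The lowest shTardbp value exceeded the highest control value. The rise was 2.01-fold (log2 1.01, SE 0.0827, limma adjusted p = 9.87e-07), and it was 1.00 against shGFP and 1.02 against shLuciferase. Across the alternatives the log2 change stayed between 0.96 and 1.11, and the highest adjusted p was 0.000863, with the code letter as a block. Within the P arrays it was 1.10. Its place above Scn3a was not kept throughout: Scn3a changed as much against shLuciferase (1.02), and more within the P arrays (1.24) and over probe sets above the 25th percentile only (1.27, against 1.08 for Cacna2d2), a setting chosen after seeing the data.

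The other alpha2delta genes did not follow. Cacna2d1, also a target of gabapentin-type drugs, had 8.46, 8.27, 8.55 and 8.59 in shTardbp, 8.69, 8.70, 8.84 and 8.77 in shGFP, and 8.59, 8.38 and 8.31 in shLuciferase. The shTardbp values lay below all shGFP values and overlapped shLuciferase. Against both controls the change was -0.12 (SE 0.0755, limma adjusted p = 0.282). Against shGFP it was -0.28 (adjusted p = 0.0223), and against shLuciferase 0.040 (adjusted p = 0.845). Cacna2d3 changed by 0.034 (adjusted p = 0.782).

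Of the 4 intracellular beta subunits, Cacnb1 rose, Cacnb4 fell and the other two did not pass. Cacnb3, the beta subunit of many N-type channels, had the highest signal of all members: 10.91, 10.97, 10.92 and 10.96 in shTardbp, 10.86, 10.79, 10.76 and 10.60 in shGFP, and 10.92, 10.89 and 10.77 in shLuciferase. Ranges overlapped only through shLuciferase 1, but the change of 0.13 did not pass (SE 0.0611, limma adjusted p = 0.132). Cacnb1, the beta subunit of the skeletal muscle channel with splice forms in neurons, had 7.92, 8.25, 8.06 and 8.12 in shTardbp. Its control levels were 7.82, 7.66, 7.58 and 7.68 in shGFP and 7.75, 7.90 and 7.76 in shLuciferase. The groups did not overlap, with 7.92 the lowest shTardbp value and 7.90 the highest control value. The change was 0.35 (SE 0.0714, limma adjusted p = 0.00191), and all 16 probe sets had a positive change. It did not pass with the median of the probe sets (0.26, adjusted p = 0.157) or with the code letter as a block (0.40, adjusted p = 0.0708).

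Cacnb4, a neuronal beta subunit whose loss causes ataxia and seizures in mice, fell. It had 4.71, 5.08, 4.95 and 5.11 in shTardbp, against 5.39, 5.49, 5.54 and 5.39 in shGFP and 5.38, 5.38 and 5.59 in shLuciferase. All shTardbp values lay below all control values, and both controls had the same mean of 5.45. The change was -0.49 (SE 0.0805, limma adjusted p = 0.000342), and it was -0.49 against each control. The 8 probe sets above the 25th percentile averaged -0.71, and the 5 below it -0.14. With the code letter as a block the change was -0.67 (adjusted p = 0.00864). Cacnb2 changed by -0.058 and did not pass (adjusted p = 0.595).

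Of the 4 gamma genes measured, Cacng4 and Cacng5 fell, and Cacng1 and Cacng2 did not pass. Cacng5 had 6.01, 5.94, 6.03 and 5.90 in shTardbp, against 6.58, 6.62, 6.61 and 6.61 in shGFP and 6.53, 6.36 and 6.79 in shLuciferase. The gap between the highest shTardbp and the lowest control value was wider than the whole shTardbp range. It was the largest fall among the members against both controls (-0.61, SE 0.0729, limma adjusted p = 2.34e-05), at -0.64 against shGFP and -0.59 against shLuciferase. Its probe sets were uneven: 5 of 10 were called lower, by 0.67 to 1.63 on the log2 scale, while the brightest one changed by 0.18 (adjusted p = 0.437).

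Cacng4 had 7.90, 8.15, 8.05 and 8.05 in shTardbp, against 8.67, 8.59, 8.59 and 8.63 in shGFP and 8.28, 8.44 and 8.47 in shLuciferase. Again no shTardbp value reached a control value, and the 2 control ranges did not overlap either. The change was -0.47 (SE 0.0622, limma adjusted p = 5.70e-05), with -0.58 against shGFP and -0.36 against shLuciferase. All 6 probe sets had negative changes between -0.39 and -0.55, and 5 passed. Cacng1, Cacng4 and Cacng5 lie next to each other on chromosome 11 in the RefSeq gene order. Cacng1, a subunit of the skeletal muscle calcium channel, changed by -0.024 (adjusted p = 0.890), and the 40 genes measured around Cacng4 and Cacng5 had a median change of 0.012. Cacng2, the founding AMPA receptor auxiliary subunit, changed by 0.058 (adjusted p = 0.645).

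**Figure D3:**
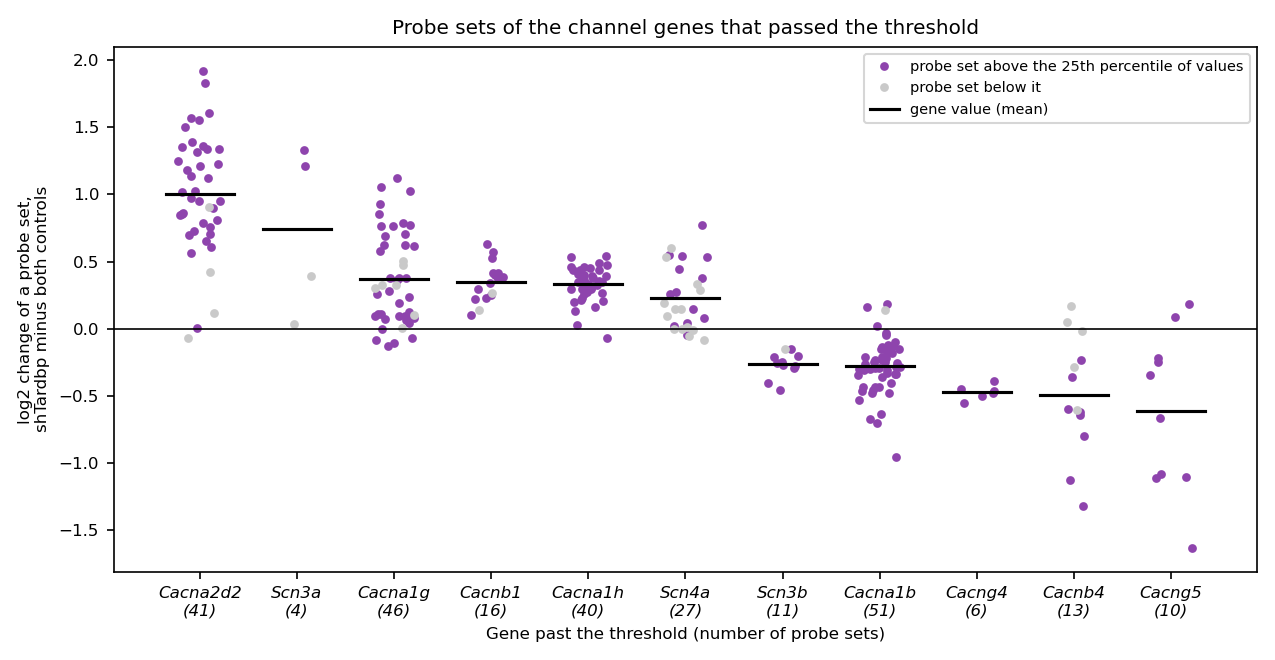
Log2 change of every probe set of the 11 channel genes that passed the threshold, shTardbp minus the average of the shGFP and shLuciferase means; purple points are probe sets above the 25th percentile of values, grey points are below it and black bars are the gene values. Cacng4 and Cacna1h are tight, whereas Cacna2d2, Cacng5, Cacnb4 and Scn3a spread widely around their gene values.

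Probe set usage is the level of a probe set after subtracting the mean of the others in its gene. Among the members that met the level filter of its test, only Cacna2d2 had probe sets that passed. Of its 41 probe sets 40 had a positive change and 35 were called higher. Usage was tested for 289 probe sets of 10 members, and 2 passed (0.692%), both in Cacna2d2. Only genes above the median gene level of 6.41, as a mean over all arrays, were tested. Cacna2d2 stood at 6.24 in the controls and 7.24 in shTardbp, so it met this filter only through shTardbp. The shares over all genes that follow do not allow for that. Over 101898 probe sets of all genes 0.879% passed, and 7.48% of the 7531 genes tested had such a probe set, against 1 of the 10 members. With no filter on level 14 of 807 member probe sets passed, in Cacna1g, Cacna2d2, Cacnb4, Cacng5 and Scn3a. Over all genes 2407 of 177027 then passed. Probe set 5287094 had levels of 8.40, 8.12, 8.40 and 8.43 in shTardbp, 8.44, 8.16, 8.06 and 8.46 in shGFP, and 8.44, 8.08 and 8.64 in shLuciferase. The groups overlapped fully (change 0.0023) while the rest of the gene rose, so its usage fell by 1.11 (SE 0.152, limma adjusted p = 0.00805). Probe set 5219023 had 8.09, 8.12, 8.58 and 8.53 in shTardbp, 6.48, 6.17, 6.73 and 6.12 in shGFP, and 6.72, 6.45 and 6.17 in shLuciferase. Every shTardbp value exceeded every control value, its own change was 1.92 and its usage rose by 0.87 (SE 0.124, limma adjusted p = 0.0100). With the code letter as a block these adjusted p-values were 0.0539 and 0.0828, and the usage call made there was of another Cacna2d2 probe set, 5436469. Neither is assigned to an exon here.

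As single probe sets, 107 of the members' 808 were called in shTardbp against both controls (13.2%), 74 higher and 33 lower. Over all 194293 probe sets 15.4% were called, 7.31% higher and 8.12% lower. That total includes probe sets with several symbols or none, whereas each member probe set has a single symbol, so the sets are not alike. Cacna2d2 supplied 35 of the 74 calls upward and Cacna1b 14 of the 33 downward, so a few genes with many probe sets weigh on these counts.

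Against shGFP alone 10 members passed, 4 higher and 6 lower, where 27.9% of all genes passed (12.4% higher and 15.5% lower). Against shLuciferase alone 9 passed, 6 higher and 3 lower, where 26.1% of all genes passed (11.8% higher and 14.3% lower). Both comparisons use the same shTardbp arrays. The members that passed in the same direction in each were 7 (Cacna2d2, Scn3a, Cacnb1 and Scn4a higher, and Cacng5, Cacnb4 and Cacng4 lower). Over all genes 17.1% did so. These 7 were also the members whose 4 shTardbp values lay wholly above (4) or below (3) the 7 control values. Over all genes 18.3% did so, 8.45% above and 9.82% below. None passed in opposite directions. Of the other members past the threshold against both controls, Cacna1g and Cacna1h passed only against shLuciferase, and Cacna1b and Scn3b only against shGFP. Whether a change differed by control is tested by the controls themselves, as follows.

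Between the controls (shGFP minus shLuciferase), 4 members passed, all higher in shGFP, where 11.1% of all genes passed (6.26% higher and 4.82% lower). Scn3a differed by 0.56 (SE 0.107, limma adjusted p = 0.00358), Cacna2d1 by 0.32 (adjusted p = 0.0370), Cacna1c by 0.32 (adjusted p = 0.0399) and Cacna1b by 0.27 (adjusted p = 0.0419). Cacna1g, Cacna1h and Scn3b did not pass, with differences of 0.20, 0.18 and 0.16. The 3 weaker differences, those of Cacna2d1, Cacna1c and Cacna1b, also did not pass when shLuciferase 4 was left out (0.26, 0.21 and 0.20, with adjusted p-values from 0.128 to 0.146).

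With the code letter as a block, which leaves shLuciferase 4 as the only control array with the letter P, 7 members passed against both controls, 3 higher and 4 lower, where 15.9% of all genes passed (7.74% higher and 8.14% lower). Cacna2d2 (1.11), Scn3a (1.01), Cacng5 (-0.90), Cacnb4 (-0.67), Cacng4 (-0.57) and Scn3b (-0.48) kept their calls, and Scn8a gained one. Cacna1b, Cacna1g, Cacna1h, Cacnb1 and Scn4a lost theirs. Within the P arrays the 4 shTardbp values lay on the same side of shLuciferase 4 for all 10 of the other called members, and 2 lay above and 2 below it for Cacna1b. Members that did not pass were often one-sided too, such as Cacna1c and Cacnb3 (all 4 above) and Cacna1d and Scn9a (all 4 below). Others, such as Cacna1a, were not. The share over all genes was not counted, and the calls had used these same arrays. What the letter contributes to each change was not tested beyond these values.

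**Figure D4:**
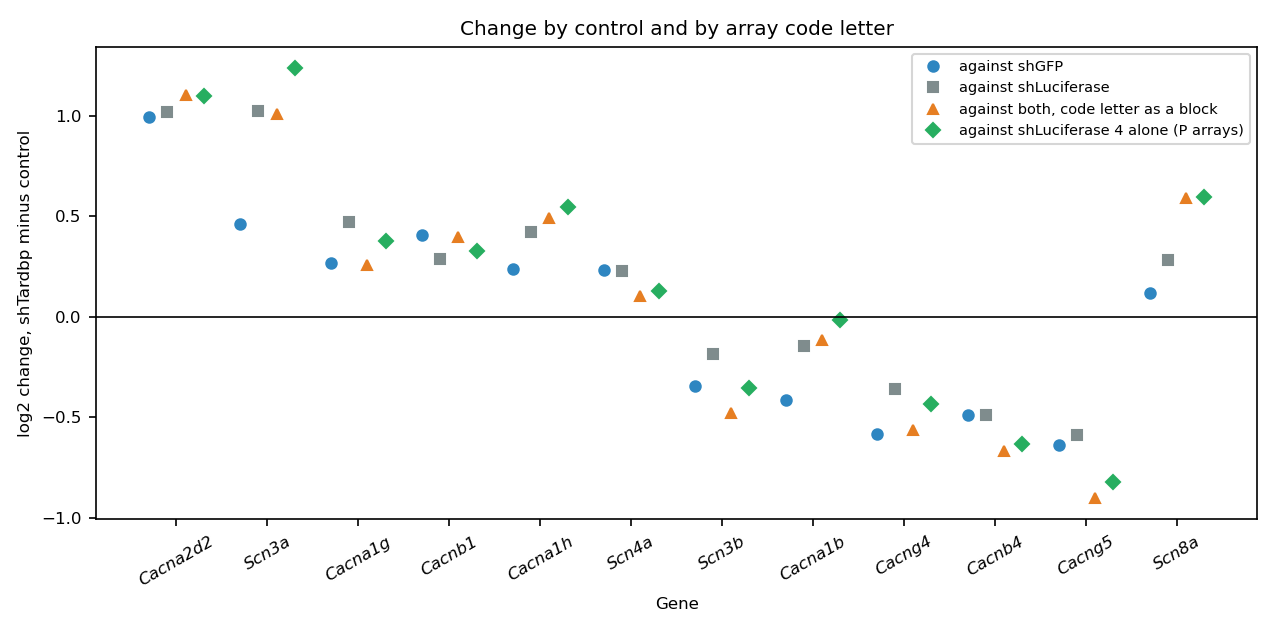
Log2 change of the 11 members past the threshold and of Scn8a, shown against shGFP (circles), against shLuciferase (squares), against both with the code letter as a block (triangles) and for the P arrays alone, against shLuciferase 4 (diamonds). Cacna2d2 gives nearly the same value throughout (1.00, 1.02, 1.11 and 1.10), whereas Cacna1b runs from -0.41 to -0.0168.

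Genes that act with the channels were counted in the same fit. Of 14 measured sodium channel partners 5 rose and 3 fell against both controls, beside 30.5% called over all genes (13.5% higher and 17.0% lower). Nfasc (-0.80, SE 0.0524, limma adjusted p = 1.24e-07) and Nrcam (-0.81, SE 0.0658, adjusted p = 8.53e-07), adhesion molecules that gather sodium channels at nodes and axon initial segments, fell. Nfasc was at 5.13 to 5.21 in shTardbp and 5.76 to 6.17 in the controls, and Nrcam at 8.65 to 8.84 in shTardbp and 9.29 to 9.81 in the controls. Gpd1l, which affects sodium channel trafficking, fell by 1.09 (SE 0.154, adjusted p = 0.000101), on 3 probe sets. Fgf11, an intracellular FGF homologous factor of the family that binds sodium channels, rose by 0.61 (SE 0.0846, adjusted p = 8.53e-05), and its call ended with the code letter as a block (0.31, adjusted p = 0.135).

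Of 17 measured calcium channel partners 8 rose and 2 fell against both controls, beside the same 30.5% over all genes (13.5% higher and 17.0% lower). Against shGFP 7 passed higher and 0 lower, where 12.4% of all genes were higher and 15.5% lower. Against shLuciferase 8 passed higher and 1 lower, where 11.8% of all genes were higher and 14.3% lower. The list was not tested as a set. Gem (1.14, SE 0.0672, limma adjusted p = 5.40e-08) and Rem2 (0.67, SE 0.0774, adjusted p = 1.84e-05) encode small GTPases that bind beta subunits and reduce high-voltage-activated calcium current. Gem was at 8.77 to 9.04 in shTardbp and 7.49 to 8.02 in the controls. Camk2a, a subunit of the calmodulin-dependent kinase that modulates calcium channels, rose by 0.89 (SE 0.0526, adjusted p = 5.24e-08). The calcium sensor gene Cabp1, whose product binds calcium channel pores, rose by 0.90 (SE 0.0872, adjusted p = 4.16e-06). The calls of Camk2b, another subunit of that kinase, and of the anchoring protein gene Akap7, both chosen after their values were seen, rested on shLuciferase: their changes were 0.89 and 0.70 against it (adjusted p = 4.33e-06 and 2.25e-05), and 0.071 and 0.17 against shGFP (adjusted p = 0.596 and 0.119).

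In the list for intracellular calcium release, uptake and extrusion 3 of 21 measured genes rose and 6 fell against both controls, beside 30.5% over all genes. The split depended on the control, with 5 higher and 2 lower against shGFP and 3 higher and 7 lower against shLuciferase. Over all genes 12.4% were higher and 15.5% lower against shGFP, and 11.8% and 14.3% against shLuciferase. The sodium-calcium exchanger gene Slc8a2, among the 6 and chosen after its values were seen, changed by -0.84 against shLuciferase (adjusted p = 2.14e-05) and by 0.24 against shGFP (adjusted p = 0.0535). Orai3, a pore of store-operated calcium entry, rose by 0.71 (SE 0.0686, limma adjusted p = 4.18e-06). The sodium-calcium exchanger Slc8a1 fell by 0.50 (SE 0.0641, adjusted p = 4.42e-05), and the calcium pump gene Atp2b3 rose by 0.33 (SE 0.0651, adjusted p = 0.00145). The Atp2b3 call ended with the code letter as a block (0.24, adjusted p = 0.214). Itpr2, an inositol trisphosphate receptor, passed against both controls (0.65, SE 0.0760, adjusted p = 2.20e-05), but its value came from one control. It stood at 6.68 in shTardbp, 6.64 in shGFP and 5.44 in shLuciferase, so the change was 0.047 against shGFP (adjusted p = 0.782) and 1.24 against shLuciferase (adjusted p = 7.41e-07).

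**Figure D5:**
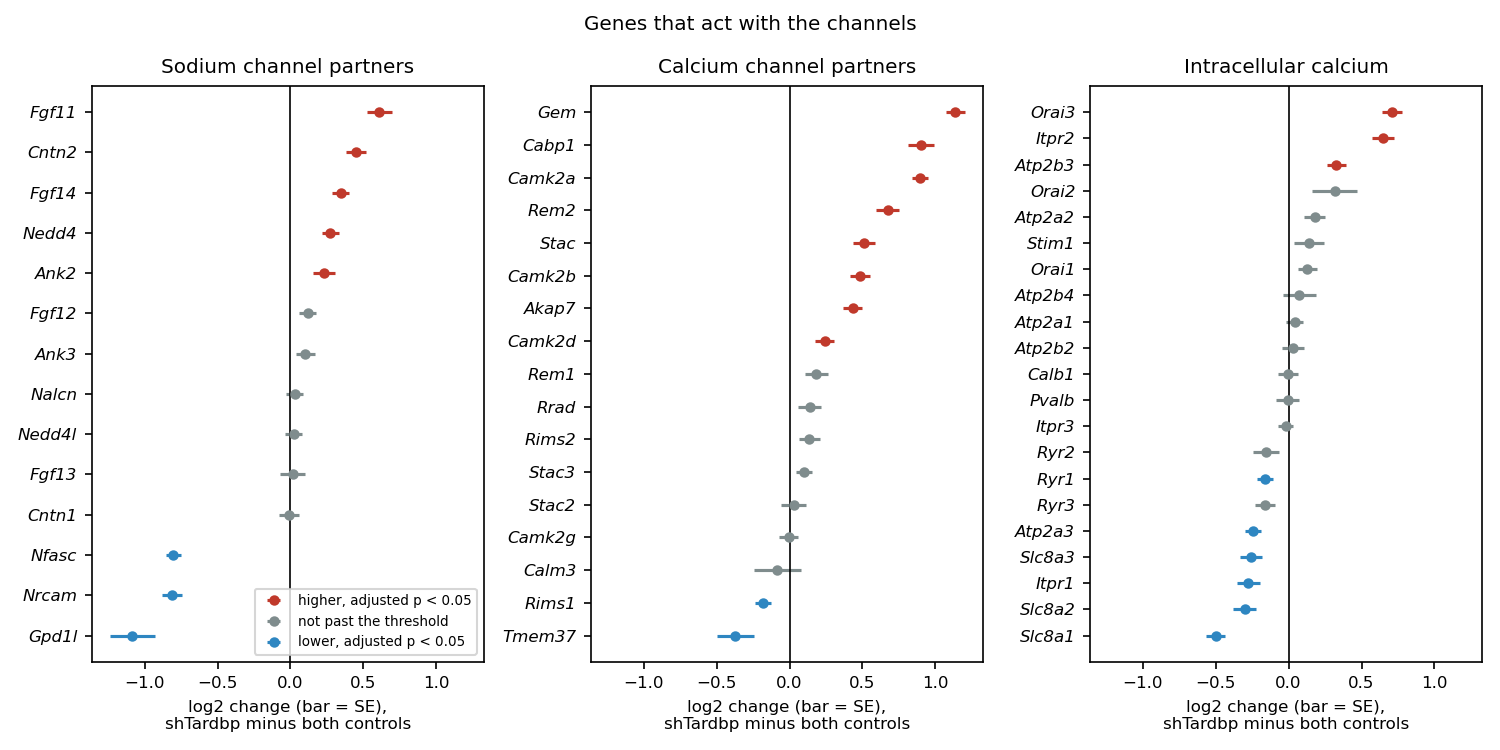
Log2 change, shTardbp minus the average of the shGFP and shLuciferase means, of sodium channel partners, calcium channel partners and genes of intracellular calcium handling; bars are standard errors, red genes rose past the threshold, blue ones fell and grey ones did not pass. The calcium channel partners hold 8 rises and 2 falls, led by Gem at 1.14, and the sodium channel partners hold Nfasc, Nrcam and Gpd1l at -0.80 or lower. Over all genes 13.5% rose and 17.0% fell past the threshold.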

How the data were processed

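RNA of 11 NSC34 samples was measured on Affymetrix whole-transcript arrays. The deposited values are log2 expression values per probe set, made by the authors with Partek and RMA, per the submitters' processing notes. Versions, background correction and annotation build: not given in the sources used here. Of 194293 probe sets, 179496 had a single gene symbol, 1328 several and 13469 none, and the mean of a gene's single-symbol probe sets was its level. A limma 3.58.1 model (R 4.3.3) held all 3 groups and all 15803 genes, with no filter, Benjamini-Hochberg adjustment and a threshold of 0.05. Usage values were a probe set's log2 value minus the mean of the other kept probe sets of its gene (above the 25th percentile, genes above the median level, at least 3 probe sets). The number of arrays limits the precision, and array signal has no read depth. Both tests were run on simulated data with independent normal noise. Those data held no array, clone or code letter effect, so the check does not cover such effects. RefSeq tables (GRCm38.p6) gave gene order and promoters, and 15763 genes were matched by symbol or synonym.

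Full values are given for the members past the threshold, the 6 with the highest control levels, and others where the text says they were chosen after their values were seen; of each partner list, up to 4 genes with the smallest adjusted p. Members and lists were chosen with earlier results of these data known. The main fit did not pair arrays by replicate number. Deviations of arrays with the same number correlated from -0.0561 to 0.263 (8 pairs), and those with different numbers from -0.292 to 0.287 (32 pairs). These ranges overlap and do not settle whether the numbers pair the arrays. Alternatives were the median of the probe sets, filters, normalization, centring, array weights, blocks, single arrays left out and the shift of neighbouring genes subtracted.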

Additional observations from a re-analysis of the deposited data

Results flagged for a closer look

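In 4 of 62 groups of 4 arrays, 1 array stood far from the other 3, relative to the range of its group. Chance gives this in about 1 in 20 independent groups. The groups here are genes measured on the same arrays, so that rate may not apply. Cacna1c in shTardbp 1 was 7.79, with the others of its group at 7.53 to 7.57. The other cases were all shGFP 1, which in each was the highest of its group. It had 5.75 for Cacna1a (others 5.55 to 5.57), 8.49 for Cacna1b (others 8.37 to 8.38) and 6.37 for Cacna1g (others 6.18 to 6.21). Without shTardbp 1 the change of Cacna1c was -0.0586, and without shGFP 1 the calls of Cacna1b and Cacna1g against both controls remained.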

How the results depend on the processing

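Against both controls 11 members passed, and 10 to 12 did when single arrays were left out, with Scn4a lost without shTardbp 2. The number was 6 among genes above the median level only and 7 with the code letter as a block, where 2509 of all genes passed, against 4825 without it (4093 to 4984 with single arrays left out). Against shGFP the range with arrays left out was 8 to 12, and against shLuciferase 7 to 9; against shLuciferase 5 members passed with the median of the probe sets and 5 among genes above the median level. Between the controls, 1 member passed with the median of the probe sets, 1 with each array centred and 1 with the replicate block, and 2 with the code letter as a block, with only the groups compared and with neighbours subtracted, against 4 otherwise and 1 to 4 with arrays left out. Usage calls were 1 with the code letter as a block (probe set 5436469), 1 with the replicate block (5287094 at adjusted p = 0.0192, with 5219023 at 0.0569), 14 with no filter on level, 4 with diffSplice and 2 to 4 with arrays left out. Over all probe sets tested 2407 of 177027 passed with no filter on level, beside 14 of the members' 807. With diffSplice 1968 of 101898 passed, beside 4 of the members' 289, in Cacna1b and Cacna2d2. Shares over all genes were not counted in each setting for the comparisons with a single control or between the controls. With the replicate block the calls against both controls stayed at 11 and no named member lost its call there. The sign of the small change of Cacna1c turned with the median of the probe sets (-0.0143), array weights (-0.0645), neighbours subtracted (-0.0376) and only probe sets above the 25th percentile (-0.00070, chosen after seeing the data), and without shTardbp 1 (-0.0586; the range with arrays left out was -0.0586 to 0.0380), shGFP 3 (-0.00075), shGFP 5 (-0.0079) or shLuciferase 4 (-0.0527). Cacna2d1 turned to 0.0253 with the code letter as a block. The cause was not tested. Centring and a repeated quantile normalization each left 11 members past the threshold against both controls. A fit of only the groups compared was not run against both controls, since it holds the same arrays. Cacna2d2, Scn3a, Cacng5, Cacnb4 and Cacng4 passed under every alternative that tested them.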
